A study of Caenorhabditis elegans with 2 samples.

Results

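ZIP-8 peaks that lay in intergenic sequence upstream of the nearest gene, away from any promoter window, are described here as distal upstream peaks. They were chosen by position alone. A peak of the authors' optimal list was kept when its summit lay outside every protein-coding gene, outside the stretch from 1000 bp upstream to 200 bp downstream of every protein-coding transcript start, and upstream of the nearest such start on that gene's strand. Of the 2610 optimal peaks on the 6 nuclear chromosomes, 469 met the rule, which was 18% (95% exact Clopper-Pearson interval 16.5% to 19.5%). For comparison, 808 summits lay in a promoter window, 734 in an intron, 401 in an exon and 198 in intergenic sequence with the nearest start facing away, called beyond a gene end.

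The data came from ChIP-seq of ZIP-8 fused to enhanced GFP in embryos of mixed stages from strain OP327 (unc-119(ed3) III; wgIs327). The integrated transgene wgIs327 supplies the tagged ZIP-8, so every sample carried it in addition to the unc-119(ed3) background. Whole organisms of pooled sex and unknown age were used, and 2 biological replicates from separate biosamples form 1 group. Whether those were separate cultures is not given, so how they differ may reflect technique as well as biology, and cell types cannot be told apart. No untagged strain or input was analysed here, and tests below compare peaks, sites or windows of this 1 group, not conditions. Nearby peaks and repeated copies of a sequence are not independent, so the p-values describe this set of peaks.

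ZIP-8 belongs to the basic leucine zipper (bZIP) family. These factors bind DNA as dimers, and each basic region contacts 1 arm of a short site that reads alike on both strands. In animals, ATF and CREB factors are known for the palindrome TGACGTCA, called the cyclic AMP response element or CRE, C/EBP factors for TTGCGCAA, and PAR factors such as the worm's CES-2 for TTACGTAA. A site that joins an arm of one kind to an arm of another is called a hybrid here.

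The sequences that carry the findings are shown first, 1 or 2 members for each kind of site, because nearly every member held one of them close to its summit. All are on ce11, plus strand, 5′ to 3′, from the NCBI reference sequence, and span at least 30 bases on each side of the summit. Capitals mark each bZIP site within 50 bp of the summit, whole and on either strand. The first holds 2 CRE palindromes, the second a C/EBP palindrome and the third a C/EBP-PAR hybrid, TTGCGTAA, whose other strand reads TTACGCAA. They are followed by a C/EBP-CRE hybrid (TGACGCAA), a CRE-PAR hybrid (TGACGTAA), a PAR palindrome (TTACGTAA), a peak with a C/EBP-ATF composite (TGATGCAA) beside a C/EBP-PAR hybrid, and a peak with none.
skr-21, chrX:13227942-13228008: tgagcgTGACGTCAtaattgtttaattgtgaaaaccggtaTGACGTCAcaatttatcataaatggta
madd-2, chrV:1244135-1244210: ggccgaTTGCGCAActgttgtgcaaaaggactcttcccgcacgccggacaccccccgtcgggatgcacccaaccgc
ipmk-1, chrIV:12546075-12546135: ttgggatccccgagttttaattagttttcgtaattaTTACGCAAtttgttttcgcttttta
cyd-1, chrII:12978772-12978832: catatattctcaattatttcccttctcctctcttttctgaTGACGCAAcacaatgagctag
F13H8.5, chrII:6257390-6257450: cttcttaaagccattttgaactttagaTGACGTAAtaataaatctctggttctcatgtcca
cnb-1, chrV:11374088-11374148: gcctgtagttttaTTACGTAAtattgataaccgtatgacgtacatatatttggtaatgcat
tam-1, chrV:4964870-4964948: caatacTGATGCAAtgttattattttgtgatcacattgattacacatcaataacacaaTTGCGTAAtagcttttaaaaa
R07E5.4, chrIII:4390617-4390677: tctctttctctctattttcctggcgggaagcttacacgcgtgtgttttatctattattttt

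Replicate 2 gave the weaker list, and this is stated before the results because it touches all of them. Its own list held 12190 nuclear entries, against 22773 for replicate 1, and both lists are labelled as peaks and background. Of the 469 distal upstream peaks, 464 overlapped an entry of replicate 1 by at least 1 bp and 390 an entry of replicate 2. Both lists held 386 of them (82.3%), which was not distinguishable from the 680 of 808 promoter peaks (84.2%) (Fisher's exact test, adjusted p = 0.560). Since background entries count here, an overlap can rest on a weak entry. Fewer overlapped the 2610 entries of highest signal, 401 of 469 in replicate 1 and 286 of 469 in replicate 2. For promoter peaks these counts were 678 and 510 of 808, and this narrower overlap was not tested. The 78 found only in the list of replicate 1 had a median signal of 27.4 in the pooled list, against 41.3 for the 386 in both lists. Signal is the authors' enrichment value for a peak, on a scale the sources do not state, and it is used only to rank and describe peaks within a list. Signals of the 2 replicates were weakly related over the 386 shared members, with a Spearman rho of 0.363, as a description over peaks that share the pooled reads. Read counts per library are not in the lists, so the depth is unknown. Where a result is given with 1 replicate alone, the 2610 peaks of highest signal in that replicate's own list took the place of the optimal list.

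**Figure D1:**
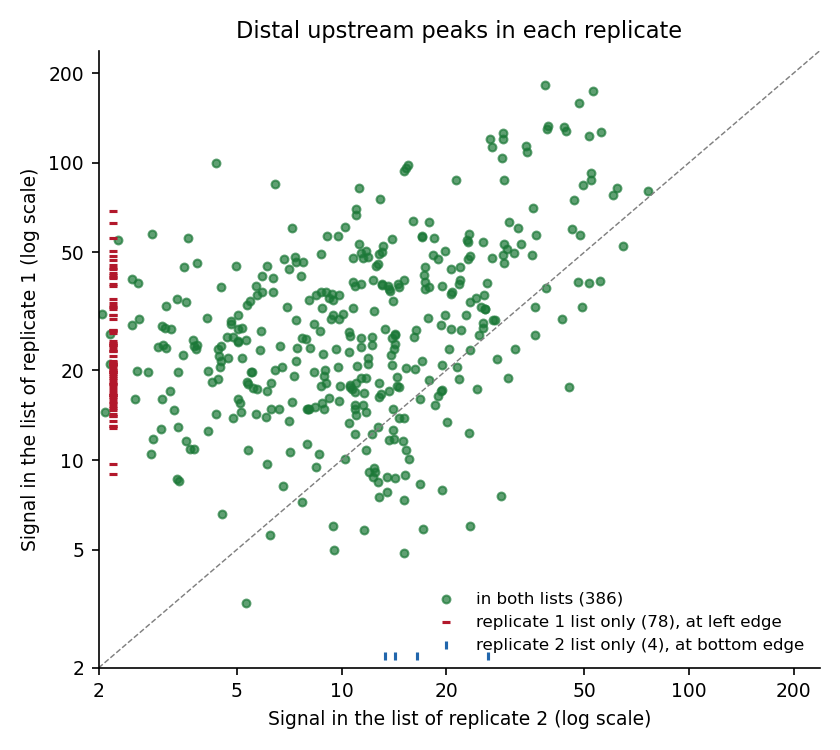
Signal of each distal upstream peak in the list of replicate 1 (y axis, log scale) against that in the list of replicate 2 (x axis, log scale). Dots are the 386 members found in both lists, ticks at the edges are the 78 and 4 members found in 1 list only, and the dashed line marks equal values; most dots lie above it.

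Distal upstream summits were marked by bZIP sites. A full site, meaning any of the 6 patterns TGACGTCA, TGACGTAA, TTGCGCAA, TGACGCAA, TTACGTAA or TGATGCAA wholly within 50 bp of the summit, was found at 352 of 469 summits (75.1%, interval 70.9% to 78.9%). Side windows, equally wide but with their centre 250 bp away from the same summits, held one in 9 of 469 cases (1.92%) (exact McNemar test, adjusted p = 4.21e-99 over 10 patterns). For scale, a full site lay at 79.5% of the other 2141 optimal summits and at 8.48% of the 4175 lower-ranked distal upstream summits of the pooled list. The CRE palindrome was the most frequent pattern, at 132 summits (28.1%) and 2 side windows (exact McNemar test, adjusted p = 7.35e-39). The C/EBP palindrome lay at 91 summits (19.4%) and in 0 of 469 side windows, a floor of 3 windows or 0.640%, so it was at least 30.3-fold more frequent at summits (exact McNemar test, adjusted p = 2.69e-27). The CRE-PAR hybrid followed with 62 summits (13.2%) and 1 side window, and the C/EBP-CRE hybrid with 49 summits (10.4%) and 2 side windows. The PAR palindrome lay at 25 summits (5.33%) and in no side window, which was 8.33-fold against the same floor. These 3 also passed the exact McNemar test, with adjusted p of 3.47e-17, 2.36e-12 and 9.93e-08 in that order.

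The other patterns searched did not pass. The C/EBP-ATF composite was at 10 summits (2.13%) and in 4 side windows (exact McNemar test, adjusted p = 0.182). The AP-1 site TGACTCA was at 7 summits and in 3 side windows (adjusted p = 0.382, exact McNemar test), and the E-box CACGTG at 8 and in 7 (adjusted p = 1.00, exact McNemar test). The GATA site AGATAA, bound by the GATA factors that pattern the worm's gut and skin, was at 21 summits (4.48%) and in 34 side windows (7.25%) (exact McNemar test, adjusted p = 0.141).

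Most of the 117 members without a full site held a pattern that the 6 do not include. The word TTGCG, 1 arm of a C/EBP site with the next base, was in 88 of the 117 summit windows (75.2%) and 11 side windows (9.40%). Extended to 8 bases it was TTGCGTAA in 71 of the 117, and no other extension was found in more than 5. This C/EBP-PAR hybrid, shown above at ipmk-1, was therefore counted as a pattern of its own, chosen after its values were seen. It was at 78 of all 469 distal upstream summits (16.6%, interval 13.4% to 20.3%). No side window of the 469 held it, which was 26.0-fold against the floor of 3 windows (exact McNemar test, adjusted p = 6.62e-24). With side windows 500 bp away, 2 of 469 held it. Only the CRE and C/EBP palindromes were at more of these summits among the 7 patterns. With it included, 423 of 469 members (90.2%, interval 87.1% to 92.7%) had a bZIP site within 50 bp, against 9 side windows (exact McNemar test, adjusted p = 5.17e-121). The share was 89.4% at the other optimal summits. The share depended on the replicate: with replicate 2 alone 265 of 455 distal upstream summits (58.2%) had 1 of the 7 sites and 220 (48.4%) a full site, and with replicate 1 alone 418 of 461 (90.7%) and 352 (76.4%) did. The side windows stayed between 1.74% and 1.95%. Of the 423, 359 (84.9%) had a site centred within 25 bp of the summit, and the median offset of the nearest site was 12.5 bp.

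**Figure D2:**
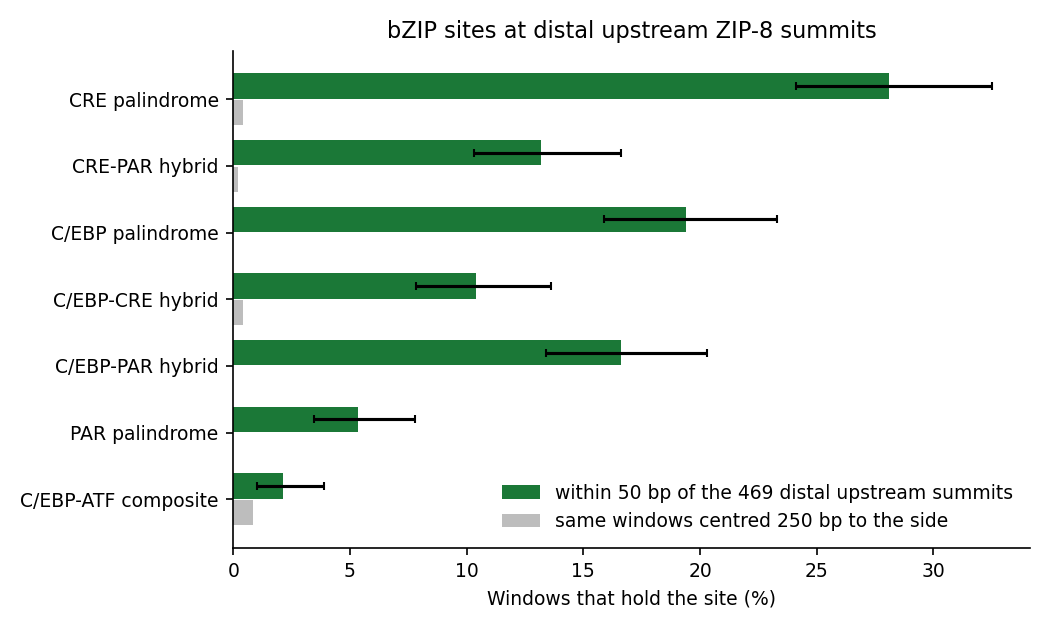
Share of windows (x axis, percent) that hold each of the 7 sites (y axis), in green for the 469 distal upstream summits with exact 95% intervals and in grey for equally wide windows 250 bp away. The CRE palindrome reaches 28.1% at summits, the C/EBP palindrome 19.4% and the C/EBP-PAR hybrid 16.6%.

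The 46 members with none of the 7 patterns were weaker. Their median signal was 27.0, against 39.5 for the 423 members with a site, and 13 of 46 (28.3%), against 223 of 423 (52.7%), exceeded the median of the optimal list (Fisher's exact test, adjusted p = 0.00442; the split was chosen after medians were seen). In the list of replicate 1 taken alone, 20.9% against 52.4% exceeded that list's median, and in that of replicate 2 33.2% against 72.5%. The arm TTGCG still occurred at 17 of the 46 summits (37.0%) and in 2 of the 46 side windows (exact McNemar test, adjusted p = 0.000824). The arms TTACG (11 summits and 4 side windows, adjusted p = 0.138) and TGACG (8 summits and 7 side windows, adjusted p = 1.00) did not pass the exact McNemar test. In 21 of the 46, 1 of the 7 patterns lay within 100 bp of the summit. R07E5.4, printed above, was the strongest of the 46, with a signal of 119, rank 133 in the list of replicate 1 and rank 745 in that of replicate 2. The peak near ftn-2, which encodes a ferritin, followed with a signal of 82.4 and ranks 255 and 1222.

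The kinds of site differed between distal upstream peaks and other positions. The CRE palindrome was at 132 of 469 distal upstream summits (28.1%) and 317 of 808 promoter summits (39.2%), a difference of -11.1 percentage points (Fisher's exact test, adjusted p = 0.000269 over 9 comparisons). With replicate 2 alone the shares were 16.7% and 22.1%, and the difference was not called (Fisher's exact test, adjusted p = 0.0754). The palindrome was at 268 of 401 exon summits (66.8%) (Fisher's exact test, adjusted p = 5.88e-29 over 36 tests of patterns by position). The C/EBP palindrome was at 19.4% of distal upstream and 5.24% of exon summits (adjusted p = 2.46e-09, Fisher's exact test), and its difference from promoter summits (15.8%) was not called (adjusted p = 0.239 over the 9, Fisher's exact test). The C/EBP-PAR hybrid was at 16.6% of distal upstream summits, against 11% of promoter summits (Fisher's exact test, adjusted p = 0.0258), 11.4% of intron summits (adjusted p = 0.0429) and 6.48% of exon summits (adjusted p = 2.84e-05). The promoter difference missed the threshold of 0.05 with replicate 1 alone, at 16.1% against 11.8%, and with replicate 2 alone, at 10.5% against 7.25%. It also missed it in the 50% of optimal peaks with the higher signal and with promoter windows of 500 or 2000 bp. The same held with all annotated genes except piRNA genes. Against summits beyond gene ends no pattern passed, and the lowest adjusted p was 0.114. The share with any of the 7 sites was 90.2% at distal upstream summits, 88.4% at promoter summits, 85.4% beyond gene ends, 87.7% in introns and 96.3% in exons. Only the exon share differed from the distal upstream share (Fisher's exact test, adjusted p = 0.00238).

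**Figure D3:**
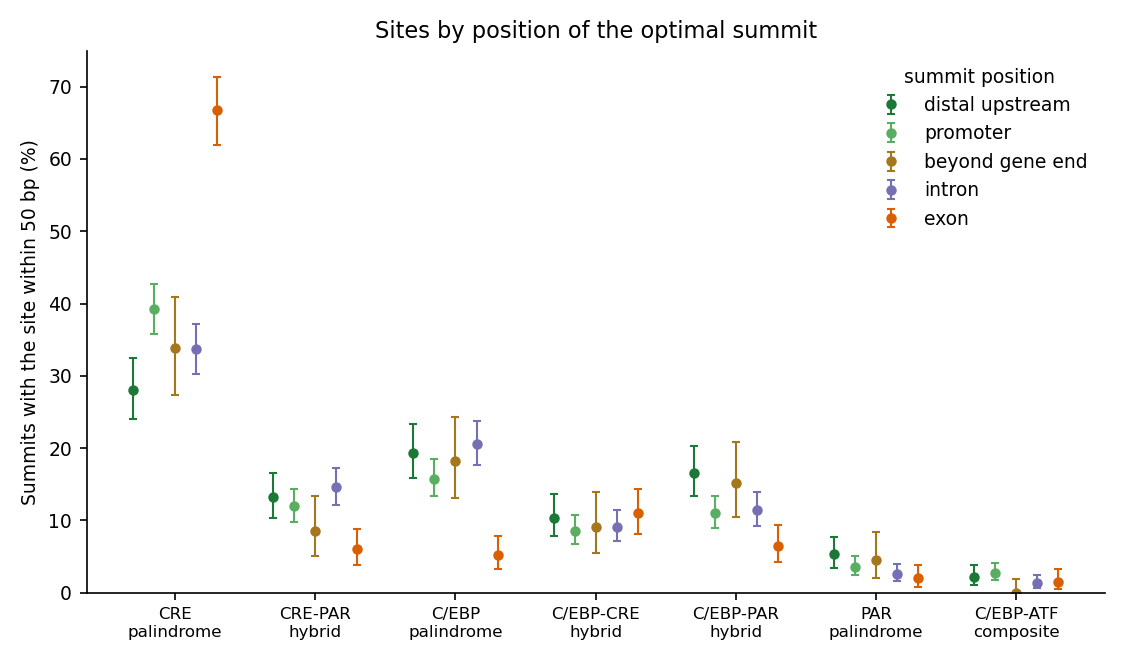
Share of optimal summits with each site within 50 bp (y axis, percent) by position of the summit (colours), with exact 95% intervals that cover counting error only. The CRE palindrome is at 28.1% of distal upstream summits, below the 39.2% of promoter and 66.8% of exon summits, while its differences from the 33.8% beyond gene ends and the 33.7% in introns were not called.

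A site alone did not mark an optimal peak, and sites at an optimal summit differed from the rest in the bases next to them. Lower-ranked summits of the pooled list were not counted here. Distal upstream sequence, 16.3 Mb in all, holds 2799 full sites, of which 386 (13.8%) lay wholly within 50 bp of an optimal summit. With the C/EBP-PAR hybrid there were 3217 sites, of which 465 (14.5%) did. Each site was then read on both strands for the base directly 5′ of its 8 bases, a split chosen after those bases were counted. Where that base was a purine, A or G, on both strands, 409 of 1005 sites (40.7%) lay at a summit, against 56 of 2212 (2.53%) of the other sites (Fisher's exact test, p = 1.04e-170). With the peaks of replicate 1 alone the shares were 40.7% and 2.40%, and with those of replicate 2 alone 25.1% and 1.67%.

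The same split held for each of the 7 patterns. C/EBP palindromes with a purine on both flanks lay at a summit in 83 of 113 cases (73.5%), against 10 of 200 others. For the C/EBP-PAR hybrid the counts were 66 of 100 (66.0%) against 13 of 318 (4.09%). They were 40 of 67 (59.7%) against 9 of 264 (3.41%) for the C/EBP-CRE hybrid and 56 of 116 (48.3%) against 6 of 284 (2.11%) for the CRE-PAR hybrid. For the PAR palindrome they were 22 of 61 (36.1%) against 3 of 166 (1.81%), and for the CRE palindrome 135 of 453 (29.8%) against 12 of 450 (2.67%). The C/EBP-ATF composite was lowest, with 7 of 95 (7.37%) against 3 of 530 (0.566%). Every one of these passed Fisher's exact test in distal upstream sequence, the weakest with an adjusted p of 0.000125 over 14 tests, and so did the same 7 in promoter windows. A T in that place was rare at summits. Of 219 flanks of C/EBP palindromes with a T, 2 (0.913%) belonged to a site at a summit, against 98 of 192 with an A (51.0%), 77 of 132 with a G (58.3%) and 9 of 83 with a C (10.8%).

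**Figure D4:**
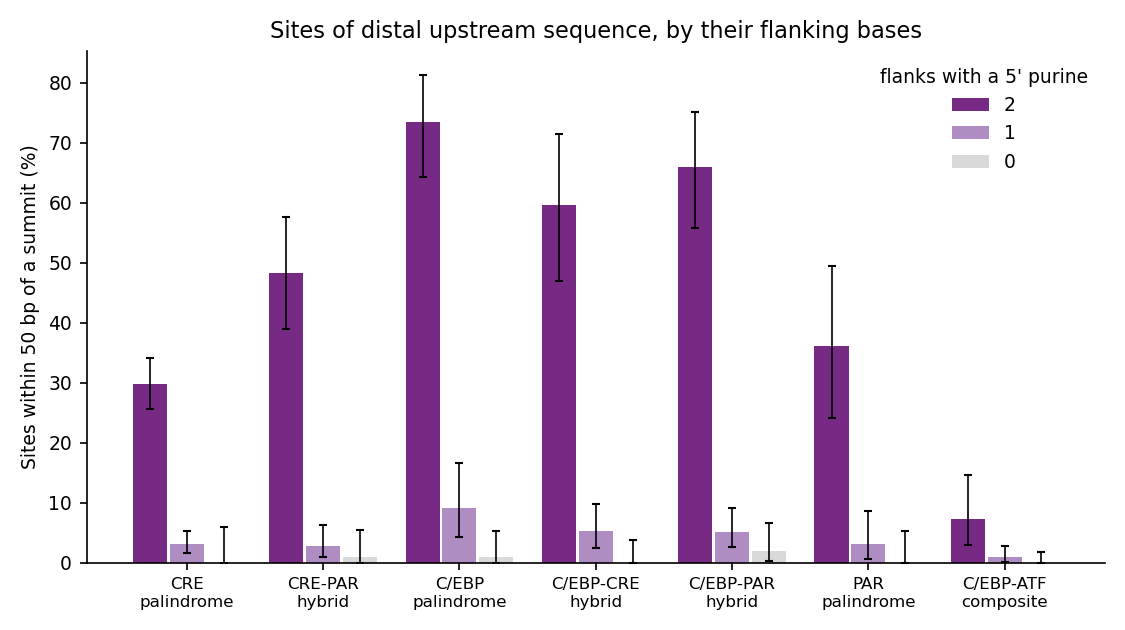
Share of all sites in distal upstream sequence that lie within 50 bp of an optimal summit (y axis, percent) for each of the 7 sites, by the number of flanks on which the base directly 5′ of the site is a purine (colours). Error bars are exact 95% intervals; for the C/EBP palindrome the share is 73.5% with purines on both flanks, 9.18% with 1 and 0.980% with none.

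At equal pattern, sites of distal upstream sequence and of promoter windows were compared for how often they lay at a summit. Only 1 of the 7 patterns passed the threshold. Of CRE palindromes, 147 of 903 in distal upstream sequence (16.3%) lay at a summit, against 350 of 1558 in promoter windows (22.5%) (Fisher's exact test, adjusted p = 0.00150 over 7 tests). For C/EBP palindromes the shares were 29.7% and 29.4% (adjusted p = 1.00, Fisher's exact test), and for the C/EBP-PAR hybrid 18.9% and 15.4% (adjusted p = 0.397, Fisher's exact test). A p that misses the threshold does not show that the rates are equal. With a purine on both flanks the shares in distal upstream sequence and promoter windows were 29.8% and 38.9% for CRE palindromes. They were 66.0% and 54.9% for the C/EBP-PAR hybrid, and this split was not tested between positions. CRE palindromes on bases that the reference soft-masks as repeats lay at a summit in 56 of 504 cases (11.1%), against 91 of 399 on other bases (22.8%). Of the C/EBP-PAR hybrids the values were 6 of 85 (7.06%) against 73 of 333 (21.9%). The C/EBP-CRE hybrid (5.88% against 17.1%), the PAR palindrome (4.08% against 12.9%) and the C/EBP-ATF composite (0% against 2.21%) were also lower there. For the C/EBP palindrome the shares were 26.3% and 31.2%, with overlapping intervals. The CRE-PAR hybrid went the other way, at 18.4% on soft-masked and 14.6% on other bases. This split was not tested.

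Some sites recur with the same flanks, so they are not independent. The 16 bases around the site, 4 on each side, are shown for the 4 contexts found at 3 or more distal upstream summits. The site is in capitals, and the location is that of 1 distal upstream copy.
C/EBP palindrome, chrIII:11448988-11449003: cgtaTTGCGCAAcata
CRE-PAR hybrid, chrII:4546136-4546151: gttgTGACGTAAtttt
CRE palindrome, chrII:4546188-4546203: tttgTGACGTCAcaaa
CRE palindrome, chrIV:9068024-9068039: cccgTGACGTCAgaga

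The first of these contexts had 21 distal upstream copies, of which 16 (76.2%) lay at a summit, and 100 of its 144 copies in the nuclear genome did (69.4%). The second lay at a summit in 10 of 20 distal upstream copies, the third in 9 of 14 and the last in 3 of 4. These copies are a minority of the sites at members. The 79 C/EBP-PAR hybrids at members had 79 different contexts of 16 bases, the 49 C/EBP-CRE hybrids 49 and the 25 PAR palindromes 25, while the 147 CRE palindromes had 131 and the 93 C/EBP palindromes 75. Soft-masked summits made up 115 of the 469 members (24.5%), against 40.1% of the bases of distal upstream sequence.

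The strongest member shows such a repeat. Its summit lay 3506 bp upstream of gei-4, whose product was found as a partner of the actin regulator GEX-3, and its signal was 232, rank 32 of the optimal list, rank 34 in replicate 1 and rank 50 in replicate 2. The stretch around the summit is shown because its 2 sites overlap the outer ends of an inverted repeat, with units of 25 bp at III:358277-358301 and III:358308-358332.
gei-4, chrIII:358269-358340: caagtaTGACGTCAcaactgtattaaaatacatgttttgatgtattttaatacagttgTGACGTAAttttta

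An inverted repeat with units of at least 16 bp lay within 100 bp of the summit at 16 of the 469 members (3.41%) and, 1000 bp to the side, at 6 (1.28%). At other summits the share was 2.72% in promoter windows, 4.04% beyond gene ends, 6.40% in introns and 0.249% in exons. Of the 132 members with a CRE palindrome 11 had such a repeat (8.33%), and of the 62 with a CRE-PAR hybrid 8 did (12.9%). Of the 91 with a C/EBP palindrome 1 did, and of the 78 with a C/EBP-PAR hybrid 0 (a count of 3 would be 3.85%). The peaks 4711 bp upstream of the cuticle collagen gene col-187 (signal 123) and 2606 bp upstream of the peptide receptor gene frpr-15 (signal 62.9) were of this kind. Both stood apart between replicates. The col-187 peak ranked 122 in replicate 1 and 4903 in replicate 2, and the frpr-15 peak ranked 341 in replicate 1 and was not in the list of replicate 2.

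Members with 2 sites at the summit had higher signal than members with 1. No member had more than 2, 42 had 2, at a median spacing of 41.5 bp, and 381 had 1. The median signal was 78.4 for those with 2 sites and 37.2 for those with 1. Of the 42, 39 (92.9%) exceeded the median of the optimal list, against 184 of the 381 (48.3%) (Fisher's exact test, adjusted p = 2.59e-08 over 5 comparisons of signal, all chosen after values were seen). With replicate 1 alone the shares were 92.9% and 47.9%. With replicate 2 alone they were 87.5% and 71.0%, and the difference was not called (Fisher's exact test, adjusted p = 0.161). In promoter windows 65 of 71 summits with 2 or more sites (91.5%) and 316 of 643 with 1 (49.1%) exceeded the median. Among members with a C/EBP palindrome and no CRE palindrome 59 of 90 (65.6%) exceeded it, against 64 of 131 with a CRE palindrome and no C/EBP palindrome (48.9%), with medians of 49.0 and 37.4 (Fisher's exact test, adjusted p = 0.0237). This difference missed the threshold with replicate 2 alone, at 74.1% against 69.7%. Members with a C/EBP-PAR hybrid had a median of 36.9 and were not distinguishable from the CRE palindrome group (48.7% against 48.9% above the median, Fisher's exact test, adjusted p = 1.00).

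By signal, the first 20 members, between 139 and 232, lay near 20 genes on all 6 chromosomes, and both replicate lists held each of them. All 20 had a site, 10 a CRE palindrome, and 12 had 2 sites. After gei-4 came skr-21, a Skp1-related gene, with a signal of 226 at 1314 bp upstream. The H10E21.5 peak followed with 216 at 3786 bp. The peak of madd-2, which encodes a TRIM protein that guides muscle arms and axons, had a signal of 189 at 8725 bp upstream, and a single C/EBP palindrome was its only site. The peak of tam-1, which encodes a RING finger protein, reached 170 at 1816 bp, and that of ins-17, an insulin-like peptide gene, 164 at 4415 bp. The doxa-1 peak, near a gene for a maturation factor of dual oxidase, held a C/EBP palindrome and a C/EBP-PAR hybrid and reached 156 at 6632 bp.

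The other 13 of the 20 had signals between 139 and 184. The ipmk-1 peak, near the inositol polyphosphate multikinase gene, ranked 21 in replicate 2, the highest of any member there, and 184 in replicate 1. The skr-21 peak ranked 29 in replicate 1, the highest of any member there, and 118 in replicate 2. The cyd-1 peak, near the cyclin D gene, had a signal of 144 and ranked 194 in replicate 1 and 39 in replicate 2. The remaining peaks lay near F13H8.5, Y50C1A.2, T28D6.7, Y65A5A.24, C54E4.4, the astacin protease gene nas-30, the alpha-catulin gene ctn-1, F53A2.1, lact-5, the anosmin gene kal-1 and C01A2.9.

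Signal over all members ran between 21.5 and 232 with a median of 38.6, against 38.4 for the optimal list as a whole. Above that list median were 236 of 469 members (50.3%) and 402 of 808 promoter peaks (49.8%) (Fisher's exact test, adjusted p = 0.862), and 49.9% of all other optimal peaks. Against peaks beyond gene ends, of which 53.5% exceeded the median, the difference was not called (Fisher's exact test, adjusted p = 0.560). In the highest 25% of the list it was, with 23.5% of members against 32.8% of peaks beyond gene ends (Fisher's exact test, adjusted p = 0.0356). None of the 469 was among the 25 optimal peaks of highest signal, and 15 were among the first 100.

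Members lay between 1003 and 16516 bp upstream of the nearest start, with a median of 2384 bp and quartiles of 1582 and 4107 bp. Distance and signal were nearly unrelated, with a Spearman rho of 0.0855 across the 469 members, as a description. Of the 180 members within 2000 bp, 165 (91.7%) had 1 of the 7 sites, and of the 17 beyond 8000 bp 15 did (88.2%). The farthest were at Y105C5B.1418 (16516 bp, signal 27.6), irld-18 (12941 bp, signal 45.2), H11E01.3 (10824 bp, signal 27.0), die-1 (10325 bp, signal 55.1) and ser-6, an octopamine receptor gene (9805 bp, signal 32.7). All 5 held a site, a CRE palindrome in the first 4 and a CRE-PAR hybrid at ser-6. The 3 members just inside the limit of 1000 bp were at Y116A8C.23 (1003 bp, signal 23.5), Y50C1A.2 (1005 bp, signal 183) and the choline transporter gene cho-1 (1024 bp, signal 33.4). The 3 peaks just outside it, which count as promoter peaks, were at the insulin gene ins-26 (995 bp, signal 51.5), C39B10.5 (994 bp, signal 28.1) and C13G5.2 (991 bp, signal 37.7).

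**Figure D5:**
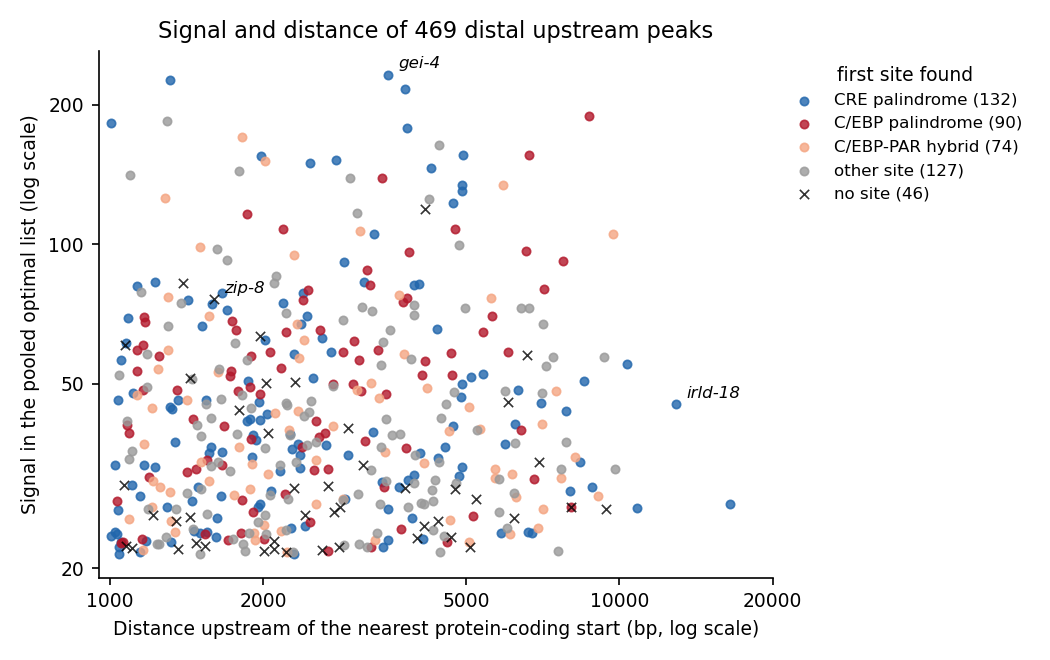
Signal in the pooled optimal list (y axis, log scale) against the distance upstream of the nearest protein-coding start (x axis, bp, log scale) for the 469 distal upstream peaks, coloured by kind of site. Members with more than 1 kind took the first in the order of the key. An exception is the lact-5 peak, drawn as other site for its C/EBP-CRE hybrid although it also held a C/EBP-PAR hybrid. Signal shows no trend with distance, and crosses, the 46 members with no site, lie mostly below 50.

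The rule leaves 16.3 Mb of the nuclear genome open to members, which is 16.2%, and they were found at 28.8 per Mb there, against 30.8 per Mb for promoter peaks in promoter windows. Distal upstream summits made up 18% of the optimal list and 15.3% of the lower-ranked part of the pooled list (4175 of 27362) (Fisher's exact test, adjusted p = 0.000966). Chromosome X held 106 of 469 members (22.6%), against 106 of 808 promoter peaks (13.1%) (Fisher's exact test, adjusted p = 0.000148). With replicate 2 alone the shares were 22.2% and 17.2%, and the difference was not called (Fisher's exact test, adjusted p = 0.0757). X also holds 24.2% of distal upstream sequence and 14.8% of promoter sequence, and per Mb there were 27.0 members and 27.4 promoter peaks on X. Per Mb of distal upstream sequence the members were densest on III, at 39.3, and sparsest on IV, at 23.7. Between divergent genes lay 225 members (48.0%) and between tandem genes 243 (51.8%), in gaps with a median length of 9603 and 5672 bp. Only 1 lay between convergent genes, where both adjacent starts face away and the rule admits almost no summit. The split by arrangement thus follows in part from the rule, and the eligible sequence of each kind is not given here.

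Members were not free of other annotation, since the rule considers protein-coding genes alone. For 331 of 469 (70.6%) the summit lay in no gene of another kind and in no start window of one. The summit was inside a pseudogene for 23 members, an ncRNA gene for 19, a lincRNA gene for 5, and a piRNA and a tRNA gene for 1 each. It lay in the start window of an ncRNA gene for 73 members and of a piRNA gene for 25. The share of distal upstream sequence in such genes and windows is not given here, so these counts show no enrichment or lack of it. Against all annotated genes but piRNA genes 321 peaks would meet the rule, of which 89.4% had 1 of the 7 sites.

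The 469 members were nearest to starts of 434 genes, 2.17% of the 19973 protein-coding genes. Of these genes 34 (7.83%) also had an optimal summit in a promoter window, against 4.35% of all protein-coding genes. A single member was nearest to 403 of the genes, 2 to 27 and 3 to 4. The nearest start is a label of position, and no expression was measured.

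The 4 genes with 3 members each showed spread-out sites, not 1 repeated peak. Upstream of gei-4 the members lay at 1696, 2157 and 3506 bp with signals of 72.3, 32.5 and 232, and all 3 held a CRE palindrome. Upstream of die-1, which encodes a zinc finger protein needed for the shaping of the embryo and for neuronal asymmetry, they lay at 4309, 7114 and 10325 bp with signals of 27.9, 80.1 and 55.1. Their sites were a CRE-PAR hybrid, a C/EBP palindrome and a CRE palindrome in that order. Upstream of F58H1.5 they lay at 5247, 6253 and 7871 bp with signals of 39.7, 28.5 and 37.4, and upstream of Y82E9BR.17 at 1285, 2539 and 6108 bp with signals of 126, 37.4 and 23.7.

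Members near transcription factor genes are given by family. Of 103 homeodomain genes 11 (10.7%) were nearest to a member, of 39 basic helix-loop-helix (bHLH) genes 5 (12.8%), of 15 forkhead genes 4 (26.7%), of 274 nuclear hormone receptor genes 10 (3.65%) and of 29 bZIP genes 3 (10.3%), beside 2.17% of all protein-coding genes. Long intergenic sequence and the number of members go together, and per Mb of eligible sequence the lists gave 46.7, 72.8, 105, 32.4 and 140 members in the same order, against 28.8 over all genes. These rest on 12, 6, 4, 11 and 4 members, and the lists were chosen with earlier results known, so the counts are a description. The bZIP members include the peak upstream of zip-8 itself, whose sequence the strain also carries on its transgene, and both peaks upstream of ces-2. None of the 21 T-box, 80 histone or 81 cytosolic ribosomal protein genes, and none of the 32 genes of the mitochondrial and endoplasmic reticulum unfolded protein response, was nearest to a member. These lists have 0.0219, 0.0116, 0.0188 and 0.0183 Mb of eligible sequence, so at 28.8 per Mb less than 1 member falls to each.

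The C/EBP-PAR hybrid was at 3 of the 4 bZIP members, 4 of the 12 homeodomain members, 1 of the 4 forkhead members, 1 of the 11 nuclear receptor members and 0 of the 6 bHLH members, beside 16.6% of all 469 members, and these few members were not tested. The strongest forkhead, nuclear receptor and bHLH peaks held a C/EBP or CRE palindrome. The 6 shown here, on ce11, plus strand, 5′ to 3′, are nearest to the bZIP gene zip-10, to ttx-1, an OTX homeodomain gene of thermosensory neurons, to ceh-32, a Six-family homeodomain gene of the head, to the forkhead gene fkh-9, to the nuclear receptor gene nhr-61, and, for comparison with a C/EBP palindrome, to nhr-25, the Ftz-F1 receptor of the epidermis. They are shown to let the hybrid be read in separate surroundings, and capitals mark the site.
zip-10, chrV:11656639-11656699: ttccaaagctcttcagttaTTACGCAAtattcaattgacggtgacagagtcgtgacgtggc
ttx-1, chrV:20067239-20067299: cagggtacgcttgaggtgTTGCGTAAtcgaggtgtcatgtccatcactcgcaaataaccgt
ceh-32, chrV:11707723-11707783: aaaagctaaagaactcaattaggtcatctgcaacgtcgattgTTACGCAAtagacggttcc
fkh-9, chrX:3834427-3834487: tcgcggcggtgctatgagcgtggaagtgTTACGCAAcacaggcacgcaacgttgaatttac
nhr-61, chrII:14822295-14822355: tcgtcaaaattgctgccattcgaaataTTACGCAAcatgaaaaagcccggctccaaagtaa
nhr-25, chrX:13004701-13004761: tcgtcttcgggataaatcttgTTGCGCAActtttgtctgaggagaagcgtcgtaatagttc

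The zip-10 peak had a signal of 134 at 5907 bp upstream and ranked 206 in replicate 1 and 78 in replicate 2. The ttx-1 peak had a signal of 107 at 3093 bp, the ceh-32 peak 56.9 at 2353 bp, and the peak of ceh-45, a goosecoid-like homeodomain gene, 50.2 at 3258 bp. These 3, the strongest of the 12 homeodomain members, each held a C/EBP-PAR hybrid. Both members upstream of ces-2, the PAR-type bZIP gene that controls death of a neuron's sister cell, also held it, with signals of 30.9 each at 1213 and 1562 bp. The daf-16 peak, near the FOXO gene of insulin signalling, held a C/EBP palindrome and had a signal of 75.9 at 2394 bp. The fkh-9 and fkh-2 peaks had signals of 48.3 and 41.6. The 2 members upstream of nhr-25 lay at 3762 and 6049 bp with signals of 75 and 58.7, each with a C/EBP palindrome.

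Among bHLH genes, the peak of mml-1, the Mondo factor of lipid and glucose metabolism, had a signal of 62.1 with a CRE palindrome. That of sbp-1, the worm's SREBP, had 39.8 with a C/EBP palindrome at 6411 bp. The peak of lin-32, the atonal-type proneural gene, had 51.4 and none of the 7 sites. In the Wnt pathway 3 of 28 genes (10.7%) were nearest to a member, beside 2.17% of all protein-coding genes. That gave 75.4 members per Mb against 28.8 over all genes, on 4 members, and was not tested. The 2 members upstream of the beta-catenin gene wrm-1 had signals of 88.1 and 33.4 at 3194 and 2156 bp, with a C/EBP palindrome and a C/EBP-CRE hybrid. The peak of the TCF gene pop-1 had a signal of 50.4, ranked 1173 in replicate 1 and 7637 in replicate 2, and held no site. The peak of the Frizzled gene cfz-2 had 44.6 with a C/EBP-PAR hybrid.

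Genes of neurons and of cell adhesion made up further groups. Of 111 neurotransmitter and peptide receptor genes 14 (12.6%) were nearest to a member, beside 2.17% of all protein-coding genes. The density was 26.7 members per Mb of eligible sequence, against 28.8 over all genes. All 15 of these members held 1 of the 7 sites, beside 90.2% of all 469 members. The strongest were near mgl-3, a metabotropic glutamate receptor gene (70.0), npr-32 (67.3) and frpr-15 (62.9). Of 67 axon guidance, cadherin and adhesion genes 12 (17.9%) were, at 55.2 per Mb against 28.8 over all genes, and all 13 members held a site, beside the same 90.2%. Neither count was tested. The strongest were near igcm-3 (82.6), the dystroglycan gene dgn-1 (81.6) and the Fat-like cadherin gene cdh-4 (72.7). Of 144 neuropeptide and insulin genes 6 (4.17%) were nearest to a member, at 21.7 per Mb against 28.8 over all genes. Signals were highest near ins-17 (164), nlp-8 (65.3) and nlp-18 (56.2). Of 1309 chemoreceptor genes 16 (1.22%) were nearest to a member, at 22.8 per Mb against 28.8 over all genes. Their strongest peaks were near srsx-8 (108), sri-20 (85.2) and srt-45 (74.6). Of 175 cuticle collagen genes 4 (2.29%) were nearest to a member, and of 185 detoxification genes 3 (1.62%). These 2 lists gave 45.4 and 43.0 per Mb on few members, against 28.8 over all genes. The rol-6 peak, near a collagen gene that shapes the cuticle, had a signal of 69.9, ranked 239 in replicate 1 and was not in the list of replicate 2. The peaks of cyp-32A1 (46.1), ugt-50 (33.3) and cyp-33C9 (23.0) were those near detoxification enzymes. Of the remaining lists, GATA factors had 1 member (end-1, an endoderm factor, 24.8), hedgehog-related and Patched-related genes 1 (grl-16, 116), ligand-gated channels 2 (31.4 and 21.8), C-type lectins 2 (49.3 and 27.5), potassium channels 1 (21.9), F-box genes 1 (24.1) and genes of BTB, BATH and MATH proteins 0 of 90. Per Mb they gave 34.0, 9.93, 11.8, 21.4, 8.58, 6.37 and 0 in that order, against 28.8 over all genes. The last list has only 0.0550 Mb of eligible sequence.

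A member also lay upstream of zip-8, the gene of the profiled factor. Its summit was at III:6477357, 1598 bp upstream of the start, with a signal of 76.2, rank 382 of the optimal list, rank 1071 in replicate 1 and rank 89 in replicate 2. It held none of the 7 sites within 50 bp. The other strand of the sequence printed below reads TTGCGCAG, which differs from the C/EBP palindrome only in its last base. That word was found at 3 of the members without a full site. The strain carries zip-8 sequence on its transgene as well as at its own locus, and these cannot be told apart in the peak lists. The sequence around its summit is shown for that reason, on ce11, plus strand, 5′ to 3′, in lower case throughout.
zip-8, chrIII:6477327-6477387: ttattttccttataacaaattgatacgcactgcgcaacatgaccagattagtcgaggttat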

How the data were processed

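ChIP-seq peak lists of 2 replicates, of both together (the pooled list) and of the optimal IDR set on ce11 were used. All but the optimal set are labelled as peaks and background. Each list gives a signal value per peak, which the authors deposited, and per the file headers and readme the lists were made from the alignments and a control file. Neither the aligner, the peak caller, the IDR threshold nor the signal scale is named in the headers or labels, and the depth is unknown. Versions of the lists on ce10 were not used. Of 2634 optimal peaks, 24 mitochondrial ones were left out. Genes came from Ensembl release 115 (WBcel235) and sequence from the RefSeq genome of that build, whose chromosome lengths were checked against it.

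The members and gene lists were chosen with earlier results of these data known. Site shares at summits and side windows were compared by the exact McNemar test, peak classes by Fisher's exact test, both two-sided, with Benjamini-Hochberg adjustment within families of 10 motif tests, 9 planned class tests, 36 class by motif tests, 14 flank tests and 5 signal tests, at a threshold of 0.05. Intervals are exact Clopper-Pearson ones and cover counting error only. Peaks named are the 20 of highest signal, the 3 of highest signal per kind of site and per gene list with 3 or more members, genes with 3 members, the 5 farthest, those beside the 1000 bp limit and the highest ranked in each replicate. Second members of a gene and members of lists with 1 or 2 members (end-1 and grl-16 among them) fall outside this rule and were chosen after their values were seen. Scripts used Python 3.11.15, numpy 2.4.6, pandas 2.3.3, scipy 1.17.1 and matplotlib 3.10.9 and were tested on simulated data. Alternatives covered the promoter window, window width, annotation, signal threshold, repeats and each replicate.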

Additional observations from a re-analysis of the deposited data

How the results depend on the processing

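There were 183 comparisons of 19 results with an alternative, over 14 settings. Of these, 149 kept their direction and their side of the threshold, or for the number of members stayed within a set factor. The direction turned in 13, counted so whether or not the threshold was also crossed. Of those that kept their direction, 15 no longer passed the threshold and 4 newly passed it, and 2 counts of members moved further. Among the 13, the signal comparison of C/EBP with CRE palindromes in the 50% of optimal peaks with the higher signal also lost the threshold. The cause of these changes was not tested. The C/EBP-PAR hybrid, the 7-site set, the flank split, the signal splits and the soft-mask setting were chosen after seeing the data. No paired analysis was possible because the samples form 1 group. The number of members was 236 in the 50% of optimal peaks with the higher signal, 289 with a promoter window of 2000 bp, and 455 to 461 with 1 replicate alone. In that higher 50%, full sites were at 80.9% of members against 82.1% beyond gene ends and any of 7 sites at 94.5% against 94.8% of promoter peaks, and signal exceeded the list median in 46.6% against 47.8% of promoter peaks and 61.3% beyond gene ends (Fisher's exact test, adjusted p = 0.0383). There the hybrid was at 16.1% against 12.4% of promoter summits, and members above the median were 47.5% for C/EBP against 51.6% for CRE and 47.1% with a site against 38.5% without. In the highest 25% of the list the shares were 23.5% against 23.8% (promoter) and 32.8% (beyond gene ends), 31.1% for C/EBP against 25.2% for CRE, and 24.8% with a site against 10.9% without. With a promoter window of 500 bp, the C/EBP palindrome was at 19.8% against 13.9% of promoter summits (Fisher's exact test, adjusted p = 0.0215) and the hybrid at 15.4% against 11.6%. With 2000 bp the hybrid was at 17% against 12.4%, 85.1% against 81.8% were in both replicate lists, and 70.4% (C/EBP) against 52.7% (CRE) exceeded the median. With all annotated genes except piRNA genes, full sites were at 75.1% against 76.7% beyond gene ends, the hybrid at 15.6% against 12% and X held 19.0% against 17%. That difference on X was not called. The hybrid's difference from promoter summits was not called in that higher 50%, with either promoter window or with all annotated genes. Without soft-masked summits the C/EBP palindrome was at 18.6% against 12.8% of promoter summits (Fisher's exact test, adjusted p = 0.0420), signal exceeded the median in 49.7% against 51.6%, and 86.4% against 85.0% were in both lists. With replicate 2 or replicate 1 alone, the members' shares ran between 48.4% and 76.4% for full sites, 58.2% and 90.7% for the 7 sites, 16.7% and 29.5% for CRE, 12.7% and 19.3% for C/EBP, 10.5% and 16.1% for the hybrid, 49.5% and 56.0% for signal above the median, 21.0% and 22.2% on X, 25.1% and 40.7% for sites with both purine flanks, 87.5% and 92.9% above the median with 2 sites, 67.0% and 74.1% with C/EBP, and 52.4% and 72.5% with any site. Replicate 2 alone put full sites at 48.4% of members against 44.5% of promoter summits, and signal above the median in 56.0% against 53.3% beyond gene ends. Replicate 1 alone put full sites at 76.4% against 78.1% beyond gene ends, and the 7 sites at 90.7% against 90.7% of promoter summits, where the sign turned within rounding. Without read counts, low signal cannot be told from low depth, and the weaker list of replicate 2 limits every value that rests on it.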
